A study of Mus musculus with 6 samples.

Results

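The genes described here carry glucose into the cell, break it down to pyruvate, turn pyruvate into lactate or feed it to the mitochondrion. They were taken by name, from a list of 36 symbols covering glucose uptake, glycolysis, lactate transport and pyruvate dehydrogenase, and all 36 were found among the 25220 genes of the deposited table. Poly(A) RNA was sequenced from myoblasts, the proliferating precursors of muscle fibres, in primary culture from mouse hindlimb. In the 3 Psat1 cKO libraries the genotype was Pax7 CRE+/-;Psat1fl/fl, and in the 3 Ctrl libraries it was Pax7 +/+; Psat1fl/fl. Both groups thus carried floxed Psat1, and Cre was present in Psat1 cKO only, at the locus of Pax7, a gene of satellite cells. Effects of Cre and of Psat1 loss cannot be told apart. The labels used here give neither an age nor whether this Cre needs induction. The growth medium was Ham's F10 with 10% horse serum and bFGF, a fibroblast growth factor, at 2.5 ng/mL.

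As background, glycolysis turns glucose into pyruvate, and serine synthesis leaves it at 3-phosphoglycerate, the product of phosphoglycerate kinase and the substrate of phosphoglycerate mutase. Phgdh oxidises 3-phosphoglycerate, Psat1 adds the amino group and Psph releases serine. Pyruvate is reduced to lactate by lactate dehydrogenase, or enters the mitochondrion through a carrier and is oxidised by pyruvate dehydrogenase, which the Pdk kinases switch off. Differentiating muscle expresses forms of its own for several of these proteins, among them the glucose transporter Slc2a4, the phosphofructokinase Pfkm, the phosphoglycerate mutase Pgam2 and the enolase Eno3.

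Estimated depth was 19500000 to 35100000 reads in Psat1 cKO and 33800000 to 43100000 reads in Ctrl. Psat1, the targeted gene, stood at 63.5, 74.7 and 71.8 RPKM (reads per kilobase of transcript, scaled to library depth) in Psat1 cKO, against 91.8, 93.4 and 100.2 RPKM in Ctrl. It fell by 0.44 on the log2 scale (limma, adjusted p = 0.0225), to 73.6% of the control level. A value per gene does not show how much of the floxed allele was deleted. The Psat1 call was kept without Psat1 cKO 1 but lost without any 1 of the other 5 libraries (adjusted p up to 0.0834). Libraries with Xist were Psat1 cKO 1, Psat1 cKO 2 and Ctrl 1, and the other 3 had Y-linked expression. With a term for Xist or Y-linked expression in the fit, Psat1 was not called (-0.42, limma, adjusted p = 0.0532). All 12 myoblast markers were expressed, with Myod1 at up to 636 RPKM in Psat1 cKO and 780 RPKM in Ctrl. All 12 had negative log2 fold changes (median -0.21), where 54.1% of all genes tested did. The list summed to 1480 to 1691 RPKM in Psat1 cKO and 1777 to 1985 RPKM in Ctrl, without overlap. Of the 12 markers 2 were called lower: Pax7 by 0.60 and Myf5 by 1.13 on the log2 scale (limma, adjusted p = 0.00907 and 0.0138). Pax7 itself carries the Cre in Psat1 cKO only, so its lower value cannot be told apart from an effect of that allele. The Myf5 call was lost without Psat1 cKO 2 or Ctrl 2 (adjusted p = 0.0523 and 0.0560).

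No gene of the 36 passed the test. The 34 genes that averaged 0.5 RPKM or more over the 6 libraries were tested, and Slc2a3 and Aldoc lay below that level. None was called higher, where 1.80% of the 12251 genes tested were, and none was called lower, where 0.490% were (limma, Benjamini-Hochberg adjusted p under 0.05 over all genes tested). At an unadjusted p under 0.05 none was higher, against 7.56% of all genes, and 9 were lower, or 26.5%, against 6.82% of all genes. The authors' deposited table gave no q under 0.05 for any of the 36 either, with the lowest q, 0.273, for Eno3.

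The log2 fold changes were small and leaned below 0. Their median was -0.03, against -0.01 over all genes tested, and 24 of the 34 lay below 0, or 70.6%, against 54.1% of all genes. With TMM scaling 20 of the 34 lay below 0, or 58.8%, against 49.1% of all genes. The 95% interval of the fold change stayed inside 1.5-fold in either direction for 32 of the 34 genes, against 89.7% of all genes. It reached past that bound for Slc2a4 and Pgam2. Inside 1.25-fold it stayed for 26 genes, or 76.5%, against 66.8% of all genes, and the other 8 were Slc2a4, Pfkm, Pfkfb3, Pgam2, Eno3, Slc16a3, Pdk1 and Pdk2. These intervals are for each gene alone and are not adjusted.

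**Figure D1:**
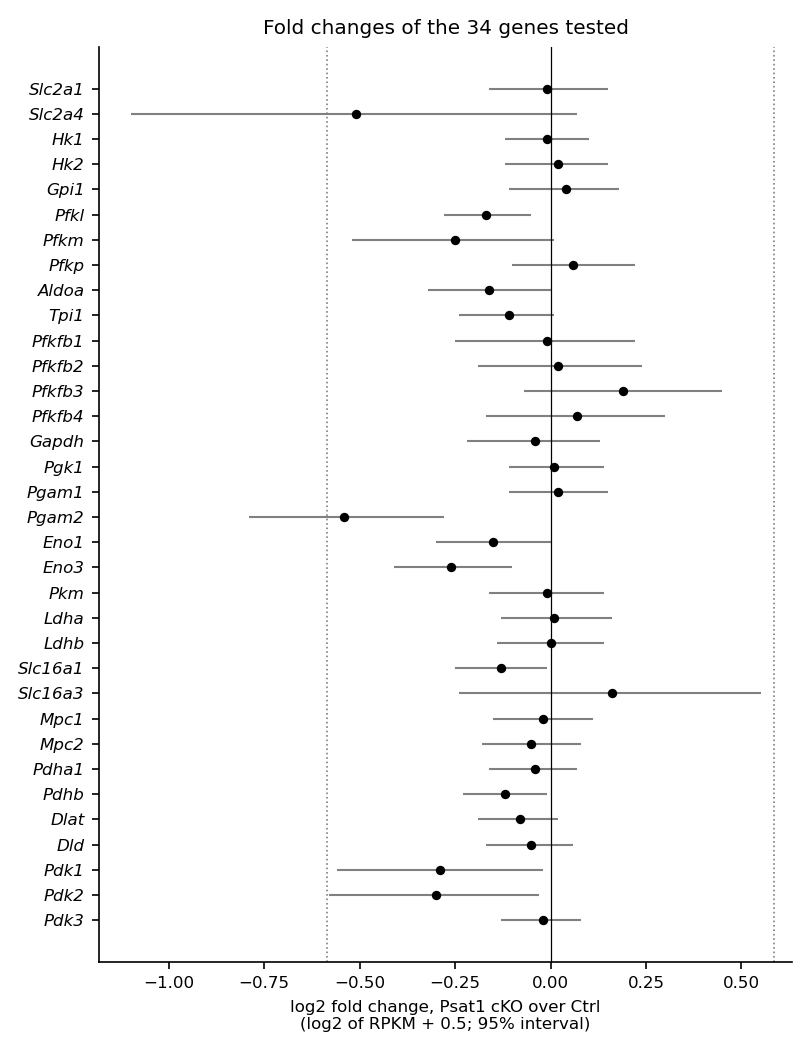
Log2 fold change of each of the 34 genes tested, Psat1 cKO over Ctrl, with its 95% interval from limma (3 libraries per group, not adjusted), in the order of the genes' roles; dotted lines mark 1.5-fold. The points of Pgam2 (-0.54) and Slc2a4 (-0.51) lie farthest from 0, and no interval reaches the upper dotted line.

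In 10 genes every Psat1 cKO library lay below every Ctrl library, where this held for 10.5% of all genes tested (29.4% of the 34). They were Pfkl, Aldoa, Tpi1, Pgam2, Eno1, Eno3, Slc16a1, Pdhb, Dlat and Pdk2. In none did every Psat1 cKO library lie above every Ctrl library, where this held for 10.0% of all genes. With TMM scaling the count of lower genes was 9, and with quantile normalization it was 8, against 8.77% and 11.0% of all genes. Genes of a pathway are not independent of each other, so the counts describe these libraries.

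Levels ranged from below 0.5 RPKM for Slc2a3 and Aldoc to those of Gapdh and Pkm. Gapdh was the highest, at 1733 ± 91.4 RPKM in Psat1 cKO and 1784 ± 44.0 RPKM in Ctrl (SD, n = 3 each), and the 5 highest genes of each library held between 70.7% and 71.5% of the summed RPKM of the 36 in Psat1 cKO and between 70.6% and 71.3% in Ctrl. Together the 36 summed to 6699, 7049 and 6719 RPKM in Psat1 cKO, against 7187, 7099 and 7232 RPKM in Ctrl. The Psat1 cKO sums all lay below the Ctrl sums, at 95.1% of their mean. In most of the genes the libraries of a group lay close together: the coefficient of variation was under 10% for 28 of the 34 tested genes in Psat1 cKO and for 29 in Ctrl. It was highest for Slc2a4, at 48.9% in Psat1 cKO and 25.4% in Ctrl.

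**Figure D2:**
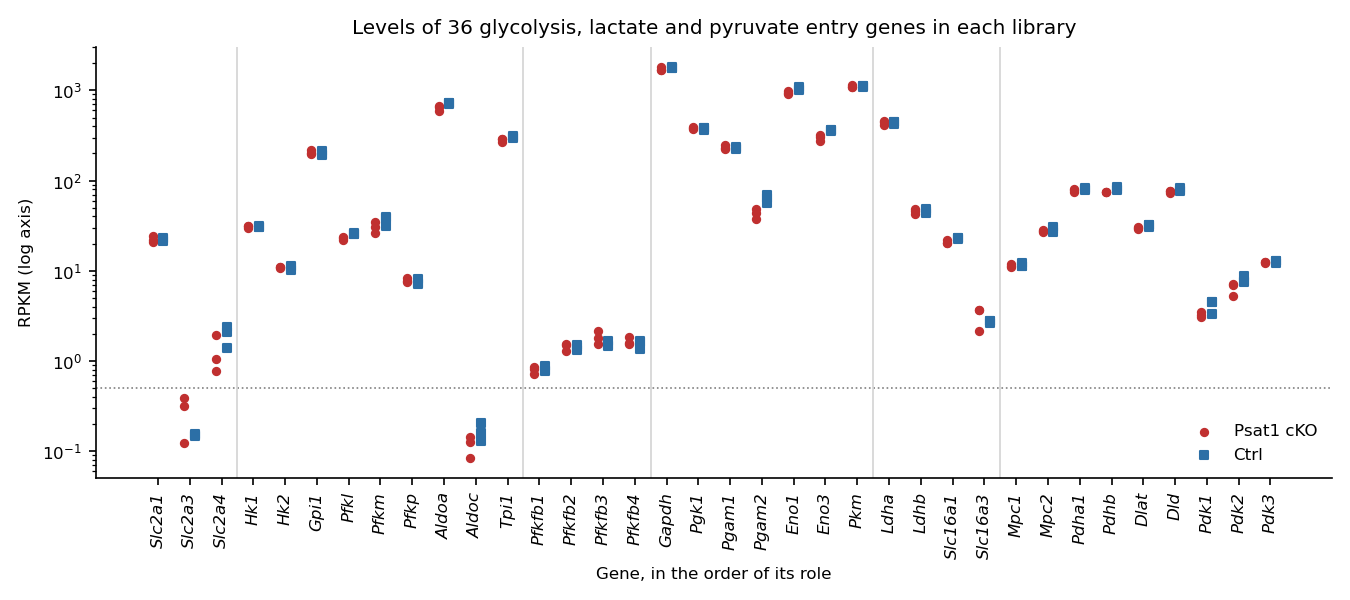
RPKM of each of the 36 genes in each library on a log axis, Psat1 cKO as circles left of Ctrl as squares, with vertical lines between roles and a dotted line at 0.5 RPKM, the level needed for the test. The points of the groups lie at the same height for most genes, and those of Pgam2 are apart.

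The most abundant glucose transporter RNA was Slc2a1, for the widely expressed GLUT1. It stood at 20.7, 24.3 and 21.9 RPKM in Psat1 cKO, against 22.4, 23.2 and 21.6 RPKM in Ctrl, with a log2 fold change of -0.01 (95% interval -0.16 to 0.15). The groups overlapped throughout. Slc2a4, the insulin-regulated transporter GLUT4 of muscle and fat, was low, at 1.06, 1.96 and 0.776 RPKM in Psat1 cKO and at 2.08, 2.39 and 1.41 RPKM in Ctrl. Its log2 fold change was -0.51 (standard error 0.25, adjusted p = 0.415), and Psat1 cKO 2 lay among the controls. Slc2a3, for the transporter GLUT3, was read at no more than 0.387 RPKM in any library and was not tested.

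Among the enzymes of upper glycolysis, down to the triose phosphates, the 8 tested genes had a median log2 fold change of -0.06. The hexokinases, which phosphorylate glucose, were close between groups: Hk1 had a log2 fold change of -0.01 (95% interval -0.12 to 0.10) and Hk2 of 0.02 (-0.12 to 0.15). Gpi1, the glucose phosphate isomerase, was at 0.04. Phosphofructokinase, the main control point, was present in all its forms. Pfkl, the liver-type form, stood at 22.8, 23.9 and 21.9 RPKM in Psat1 cKO, against 25.9, 25.4 and 25.7 RPKM in Ctrl. All Psat1 cKO libraries were lower, at a log2 fold change of -0.17 (standard error 0.05, adjusted p = 0.164). Pfkm, the muscle form, read 30.9, 34.3 and 26.2 RPKM in Psat1 cKO and 38.2, 39.4 and 31.5 RPKM in Ctrl, for a log2 fold change of -0.25, and the groups overlapped (adjusted p = 0.373). Pfkp, the platelet-type form, whose transcript shares sequence with Pitrm1, was at 0.06. Summed over the 3 forms, phosphofructokinase RNA was 61.2 ± 4.69 RPKM in Psat1 cKO and 69.6 ± 3.78 RPKM in Ctrl, and the sums overlapped.

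Aldoa, the aldolase of muscle and most tissues, stood at 652, 679 and 595 RPKM in Psat1 cKO, against 729.6, 719 and 703 RPKM in Ctrl. Its log2 fold change was -0.16 (adjusted p = 0.339), with no overlap of the groups. Tpi1, which interconverts the triose phosphates, was likewise lower in every Psat1 cKO library, at -0.11 (adjusted p = 0.405). Aldoc, the brain-type aldolase, was at no more than 0.142 RPKM in Psat1 cKO and 0.207 RPKM in Ctrl. The Pfkfb enzymes make and remove the allosteric activator of phosphofructokinase. All 4 were low, between 0.725 RPKM (Pfkfb1, Psat1 cKO 2) and 2.17 RPKM (Pfkfb3, Psat1 cKO 2), and the groups overlapped for each. Pfkfb3 had the highest of their log2 fold changes, 0.19 (adjusted p = 0.501).

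No enzyme of glycolysis at the branch point to serine was called. Pgk1, which makes 3-phosphoglycerate, stood at 374, 379.6 and 392 RPKM in Psat1 cKO, against 386, 366 and 382 RPKM in Ctrl, with a log2 fold change of 0.01 (95% interval -0.11 to 0.14). Pgam1, the common phosphoglycerate mutase that carries it on towards pyruvate, stood at 227, 245 and 225 RPKM in Psat1 cKO, against 232, 221 and 234 RPKM in Ctrl, with a log2 fold change of 0.02 (95% interval -0.11 to 0.15). The groups overlapped for both genes. Phgdh, which draws 3-phosphoglycerate into serine synthesis, averaged 208 ± 4.20 RPKM in Psat1 cKO and 213 ± 6.75 RPKM in Ctrl, and its log2 fold change was -0.04 (adjusted p = 0.798). Psph, which releases serine in the last step, stood at 29.6, 30.8 and 29.6 RPKM in Psat1 cKO, against 32.2, 32.5 and 34.8 RPKM in Ctrl, without overlap, and was not called (-0.14, adjusted p = 0.241). Gapdh, often used as a reference gene, had a log2 fold change of -0.04 (95% interval -0.22 to 0.13). The genome holds 78 near-identical copies of it, of which 3 have an entry in the table at no more than 0.897 RPKM, so its value is uncertain.

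Pgam2, the muscle form of phosphoglycerate mutase (Entrez 56012, GRCm38 chromosome 11, 5801637 to 5803796), came nearest to a call. It stood at 44.2, 48.8 and 37.3 RPKM in Psat1 cKO, against 63.6, 69.7 and 56.2 RPKM in Ctrl. The highest Psat1 cKO library was below the lowest Ctrl library, and 68.8% of the control mean remained. Its log2 fold change of -0.54 (standard error 0.11, 95% interval -0.79 to -0.28) had an adjusted p of 0.0533, just over the threshold. Without 1 library the log2 fold change ran from -0.62 to -0.43 and the adjusted p from 0.0600 to 0.188. The log2 fold change was -0.45 among the libraries with Xist, where Ctrl 1 was the only control. Among those with Y-linked expression it was -0.74, where Psat1 cKO 3, the shallowest library, was the only Psat1 cKO library. The authors' deposited table gave a q of 0.434 for Pgam2.

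Within phosphoglycerate mutase, the share of Pgam2 did not overlap between the groups either. Pgam2 made up 16.3%, 16.6% and 14.2% of the summed RPKM of Pgam1 and Pgam2 in Psat1 cKO, against 21.5%, 23.9% and 19.4% in Ctrl. The means were 15.7% ± 1.29 and 21.6% ± 2.28 (SD, n = 3 each), a difference of -5.92 percentage points (exact permutation test, two-sided, p = 0.10, 0.50 adjusted over 10 families). With 3 libraries against 3 that test cannot give a p under 0.10. The longest stretch that the principal GENCODE transcripts of Pgam1 and Pgam2 share is 28 bases. Upstream of their starts the genes also differ in sequence, as RefSeq gives it for GRCm38.p6. Both stretches of 250 bases that end at the start site are printed to show the pair side by side, read 5′ to 3′ along the gene's strand (Pgam2, minus strand, chr11:5803797-5804046, and Pgam1, plus strand, chr19:41911621-41911870).
Pgam2: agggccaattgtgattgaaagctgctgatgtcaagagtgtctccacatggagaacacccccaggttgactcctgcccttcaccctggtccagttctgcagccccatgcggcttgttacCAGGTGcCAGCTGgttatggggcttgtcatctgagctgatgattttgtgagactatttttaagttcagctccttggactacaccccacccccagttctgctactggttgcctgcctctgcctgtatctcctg
Pgam1: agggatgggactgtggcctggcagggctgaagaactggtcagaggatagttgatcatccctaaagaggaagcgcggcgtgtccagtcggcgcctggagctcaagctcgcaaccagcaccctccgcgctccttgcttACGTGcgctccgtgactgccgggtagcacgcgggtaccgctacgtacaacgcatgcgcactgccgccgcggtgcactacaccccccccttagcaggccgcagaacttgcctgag

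Capitals mark the motifs searched on both strands. The E-box CAGCTG, of the kind that the MyoD family binds, reads the same on either strand. A second E-box, CACCTG, is written CAGGTG when it lies on the opposite strand. The core that hypoxia-inducible factors bind, ACGTG, is written CACGT on the opposite strand. Pgam2 held CAGGTG beginning 132 bases before the start, then after 1 base the other E-box, at 125 bases, and no ACGTG. Pgam1 held 1 ACGTG, 114 bases before the start, and neither E-box. CAGCTG occurred in 13.0% and CACCTG in 17.2% of all 32851 promoters of that length, and ACGTG in 16.6%. Of the 36 genes 34 matched the table, with 54 promoters. ACGTG occurred in 35.2% of those 54, and each of the E-boxes in 13.0%. The median share of G and C was 61.0% in these 54 and 52.4% in all promoters. Some genes have several promoters in the table, and a match does not show binding.

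The enolases, which make phosphoenolpyruvate, were lower in every Psat1 cKO library for both genes. Eno1, the common form, stood at 928, 974 and 909 RPKM in Psat1 cKO, against 1029, 1017 and 1077 RPKM in Ctrl, a log2 fold change of -0.15 (adjusted p = 0.344). Eno3, the muscle form, stood at 305, 322 and 276 RPKM in Psat1 cKO, against 359, 361 and 357 RPKM in Ctrl, a log2 fold change of -0.26 (standard error 0.07, adjusted p = 0.114). The Eno3 values were tightly grouped in Ctrl and spread in Psat1 cKO. The share of Eno3 in the sum of Eno1 and Eno3 was 24.3% ± 0.861 in Psat1 cKO and 25.7% ± 0.684 in Ctrl (SD, n = 3 each), a difference of -1.38 points (exact permutation test, p = 0.10, 0.50 adjusted). Eno1 has a near-identical copy, Eno1b, looked up after its level was seen, at 148 ± 0.469 RPKM in Psat1 cKO and 132 ± 6.02 RPKM in Ctrl. Reads of Eno1 and Eno1b cannot be told apart with certainty. Summed, they gave 1076, 1122 and 1058 RPKM in Psat1 cKO, against 1164, 1143 and 1214 RPKM in Ctrl, which did not overlap.

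Pkm, the pyruvate kinase, averaged 1101 ± 29.6 RPKM in Psat1 cKO and 1108 ± 6.10 RPKM in Ctrl, with a log2 fold change of -0.01 (95% interval -0.16 to 0.14). Values per gene do not separate its splice forms.

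**Figure D3:**
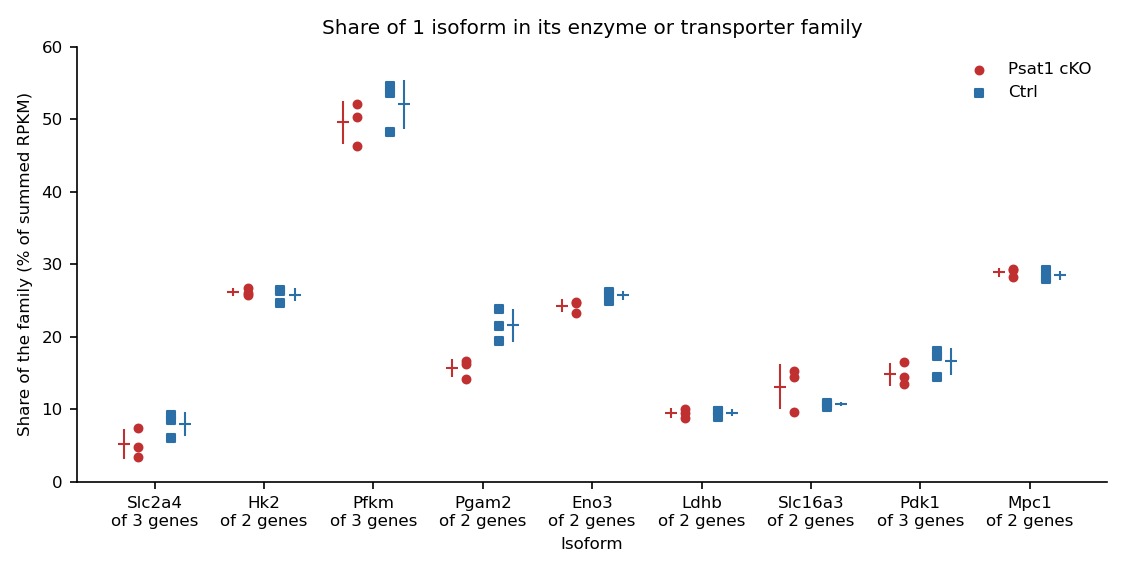
Share of 1 isoform in the summed RPKM of its family in each library, Psat1 cKO as circles left of Ctrl as squares, with the mean and SD beside the points (n = 3 each); Aldoc, under 0.1% of its family, is left out. The shares of Pgam2 (15.7% in Psat1 cKO and 21.6% in Ctrl) and Eno3 (24.3% and 25.7%) do not overlap, and those of the other families do.

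The other 8 families overlapped in their shares. Slc2a4 made up 5.19% ± 2.02 of the glucose transporters in Psat1 cKO and 7.94% ± 1.65 in Ctrl (exact permutation test, p = 0.200). Pfkm made up 49.6% ± 2.97 of phosphofructokinase in Psat1 cKO and 52.1% ± 3.38 in Ctrl. Hexokinase, lactate dehydrogenase and the pyruvate carrier differed by at most 0.42 points in their make-up, with Ldhb at 9.45% in Psat1 cKO and 9.52% in Ctrl.

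The muscle-type forms Slc2a4, Pfkm, Pgam2 and Eno3, set side by side after their values were seen, followed a like order over the libraries. In each of the 4 the lowest library was Psat1 cKO 3, and within Ctrl the lowest was Ctrl 3 and the highest Ctrl 2. The median of 32 sarcomere and muscle differentiation genes had the same order, though not each of these genes did. As a log2 difference from the Ctrl mean, that median was -0.30, -0.09 and -0.69 in the Psat1 cKO libraries and 0.00, 0.22 and -0.23 in the Ctrl libraries. For Pgam2 these differences were -0.50, -0.36 and -0.74 in Psat1 cKO and 0.02, 0.15 and -0.16 in Ctrl. For Eno3 the Ctrl order rests on close values, 359, 361 and 357 RPKM. This order was not particular to the muscle-type forms. Hk1 kept it, at 31.6, 31.7 and 29.7 RPKM in Psat1 cKO and 30.9, 31.7 and 30.8 RPKM in Ctrl. Pdhx, Pcx and Prkaa2, of the neighbouring lists, kept it too. Some glycolysis genes did not: Hk2 was lowest in Ctrl 3 (10.1 RPKM), and Aldoa was highest in Ctrl 1 (729.6 RPKM). All 32 sarcomere genes had negative log2 fold changes, between -0.85 and -0.09 with a median of -0.34, and none was called. The smallest p was that of Ckm, for muscle creatine kinase, at -0.63 (adjusted p = 0.0658), which passed without Psat1 cKO 1 (adjusted p = 0.0130). Ckm did not keep the order, at 10.1, 6.76 and 7.05 RPKM in Psat1 cKO and 13.0, 11.6 and 12.8 RPKM in Ctrl. The summed level of the list was 6346 to 9218 RPKM in Psat1 cKO and 8792 to 11390 RPKM in Ctrl. Psat1 cKO 3 was also the shallowest library. In bulk RNA, fewer cells of a type and less RNA per cell cannot be told apart, and the part of differentiation in these values was not tested.

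**Figure D4:**
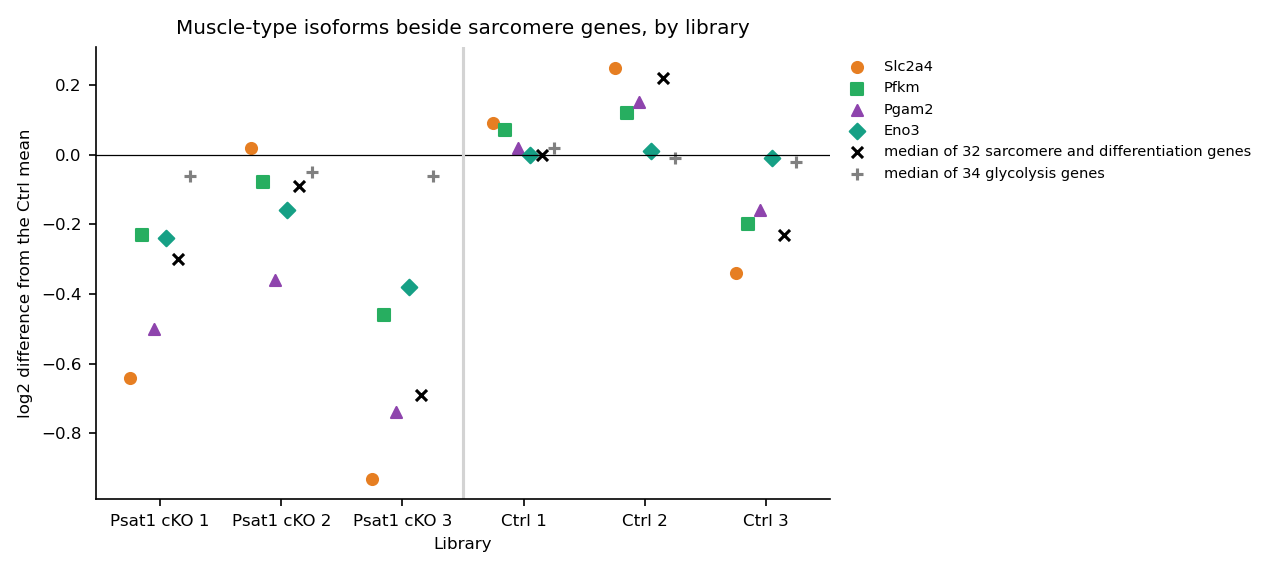
Log2 difference of each library from the Ctrl mean (log2 of RPKM + 0.5) for Slc2a4, Pfkm, Pgam2 and Eno3, for the median of 32 sarcomere and differentiation genes and for the median of the 34 glycolysis genes tested, Psat1 cKO libraries left of Ctrl. Psat1 cKO 3 holds the lowest value of each of these muscle-type forms, which were chosen after their values were seen, while the median of the 34 genes stays between -0.06 and 0.02.

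Some markers of stromal cells rose in the same libraries. Of 13 fibro-adipogenic progenitor markers 7 were tested, all with positive log2 fold changes (median 1.24), and 4 rose (Pdgfra, Cd34, Smoc2 and Mfap5), at 1.24 to 1.66. The list summed to 69.7 to 74.8 RPKM in Psat1 cKO and 37.7 to 47.7 RPKM in Ctrl. Among its other members, Dcn reached 3.11 RPKM in Psat1 cKO and 0.824 RPKM in Ctrl, Col15a1 0.616 RPKM in Psat1 cKO and 0.165 RPKM in Ctrl, and Lum 0.123 RPKM in Psat1 cKO and 0.0286 RPKM in Ctrl. Gsn, the highest of the list, reached 44.7 RPKM in Psat1 cKO and 34.9 RPKM in Ctrl. Ly6a reached 2.32 and 1.61 RPKM, and Apod 0.434 and 0.346 RPKM, in that order of groups. Ly6c1 went the other way, reaching 0.341 RPKM in Psat1 cKO and 0.472 RPKM in Ctrl. The members at 0 in every Ctrl library were Pi16 and Dpt, which reached 0.0126 and 0.0299 RPKM in Psat1 cKO. Of 10 smooth muscle and pericyte markers 7 were tested, all with positive log2 fold changes (median 0.58), and 2 rose, Tagln and Mcam (1.53 and 1.01). That list summed to 292 to 383 RPKM in Psat1 cKO and 189 to 340.1 RPKM in Ctrl. Its markers Pdgfrb and Cspg4 reached 2.76 and 2.03 RPKM in Psat1 cKO, against 0.914 and 0.798 RPKM in Ctrl. Acta2, the highest of that list, reached 238 RPKM in Psat1 cKO and 272 RPKM in Ctrl. It was the only member whose highest value lay in Ctrl. The highest values of Rgs5 were close, at 1.74 RPKM in Psat1 cKO and 1.68 RPKM in Ctrl, as were those of Notch3. The calls of Cd34, Smoc2, Mfap5, Tagln and Mcam were lost in some fits without 1 library (adjusted p up to 0.169). The part of such cells in the values of the glycolysis genes was not tested. Of the endothelial, immune, adipocyte and Schwann cell markers, 3, 3, 2 and 2 were tested and none was called. The endothelial list summed to 3.84 to 12 RPKM in Psat1 cKO and 2.83 to 5.14 RPKM in Ctrl, and the immune list to 13.0 to 26.0 RPKM in Psat1 cKO and 17.3 to 27.5 RPKM in Ctrl.

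Of the genes of lactate production and transport none was called. Ldha, which favours the reduction of pyruvate, stood at 413, 448 and 462 RPKM in Psat1 cKO, against 444, 443 and 424 RPKM in Ctrl (log2 fold change 0.01, 95% interval -0.13 to 0.16). Ldhb, the heart-type form, averaged 46.0 RPKM in both groups. Slc16a1, the lactate transporter MCT1, stood at 20.4, 20.1 and 22.0 RPKM in Psat1 cKO, against 23.0, 22.6 and 22.9 RPKM in Ctrl. All Psat1 cKO libraries were lower, by a log2 fold change of -0.13 (adjusted p = 0.295). Slc16a3, the lactate exporter MCT4, was at 2.15, 3.64 and 3.71 RPKM in Psat1 cKO and at 2.75, 2.78 and 2.64 RPKM in Ctrl. Psat1 cKO 1 was the lowest of the 6 and the other Psat1 cKO libraries the highest. Its log2 fold change was 0.16 (adjusted p = 0.738), and without Psat1 cKO 1 it was 0.37 (adjusted p = 0.0735).

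At the entry of pyruvate into the mitochondrion all 9 genes had log2 fold changes below 0, with a median of -0.05, and none was called. Mpc1 and Mpc2, which form the pyruvate carrier, were at -0.02 and -0.05. Pdhb, a subunit of pyruvate dehydrogenase, stood at 75.0, 75.4 and 73.9 RPKM in Psat1 cKO, against 84.8, 78.0 and 81.2 RPKM in Ctrl. The groups did not overlap, and the log2 fold change was -0.12 (adjusted p = 0.308). Dlat, the acetyltransferase of the complex, was at -0.08 and also did not overlap, while Pdha1 and Dld, for its catalytic alpha subunit and its dehydrogenase, were at -0.04 and -0.05 and did.

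None of the kinases that switch the complex off was called. Pdk2 stood at 6.98, 7.05 and 5.20 RPKM in Psat1 cKO, against 8.77, 7.68 and 7.46 RPKM in Ctrl, a log2 fold change of -0.30 (standard error 0.12, adjusted p = 0.302). Pdk1 stood at 3.27, 3.04 and 3.47 RPKM in Psat1 cKO, against 4.55, 4.47 and 3.32 RPKM in Ctrl, a log2 fold change of -0.29 (adjusted p = 0.313). Ctrl 3 was within the Psat1 cKO range for Pdk1. Pdk3, the most abundant of the kinases here, was at -0.02 (95% interval -0.13 to 0.08). Summed, the kinases gave 22.1 ± 0.975 RPKM in Psat1 cKO and 24.7 ± 1.54 RPKM in Ctrl (SD, n = 3 each), with no overlap.

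Of the neighbouring pathways, each described over a whole list, few genes were called. In the hexosamine pathway, which leaves glycolysis at fructose phosphate, 1 of 6 tested genes rose and none fell. That gene, Gfpt2, encodes a form of the enzyme that commits sugar to the pathway. It stood at 1.22, 2.0 and 1.71 RPKM in Psat1 cKO, against 0.586, 0.331 and 0.588 RPKM in Ctrl, a log2 fold change of 1.09 (standard error 0.17, adjusted p = 0.0210). The groups did not overlap, but the level was low, and the call was lost without Psat1 cKO 2, Psat1 cKO 3, Ctrl 2 or Ctrl 3 (adjusted p up to 0.0740). Of the 8 pentose phosphate genes 1 rose, the transketolase gene Tkt, at 34.7 ± 2.69 RPKM in Psat1 cKO and 26.9 ± 1.38 RPKM in Ctrl (log2 fold change 0.36, adjusted p = 0.0403). Its call was kept without Psat1 cKO 1 and lost without any 1 of the other 5 libraries (adjusted p up to 0.160). Tkt was also not called without a filter (0.138), without a variance trend (0.0716) or with a term for Xist or Y-linked expression (0.0894), given as adjusted p.

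None was called among 15 other genes of glycolysis, lactate and pyruvate, 13 of glycogen metabolism, 3 of gluconeogenesis, 10 of the NADH shuttles, 15 of the citric acid cycle, 14 hypoxia targets and 11 regulators of glycolytic genes. Their medians were 0.03, -0.11, -0.30, -0.06, -0.04, -0.01 and -0.01. Outside the citric acid cycle, the smallest p of each list fell on Tigar (0.18), Phkb (-0.17), Pck2 (-0.30), Slc25a13 (0.32), Adm (0.58) and Prkaa2 (-0.32), given as log2 fold changes, with adjusted p between 0.157 and 0.419. In the citric acid cycle 13 of 15 genes lay below 0.

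**Figure D5:**
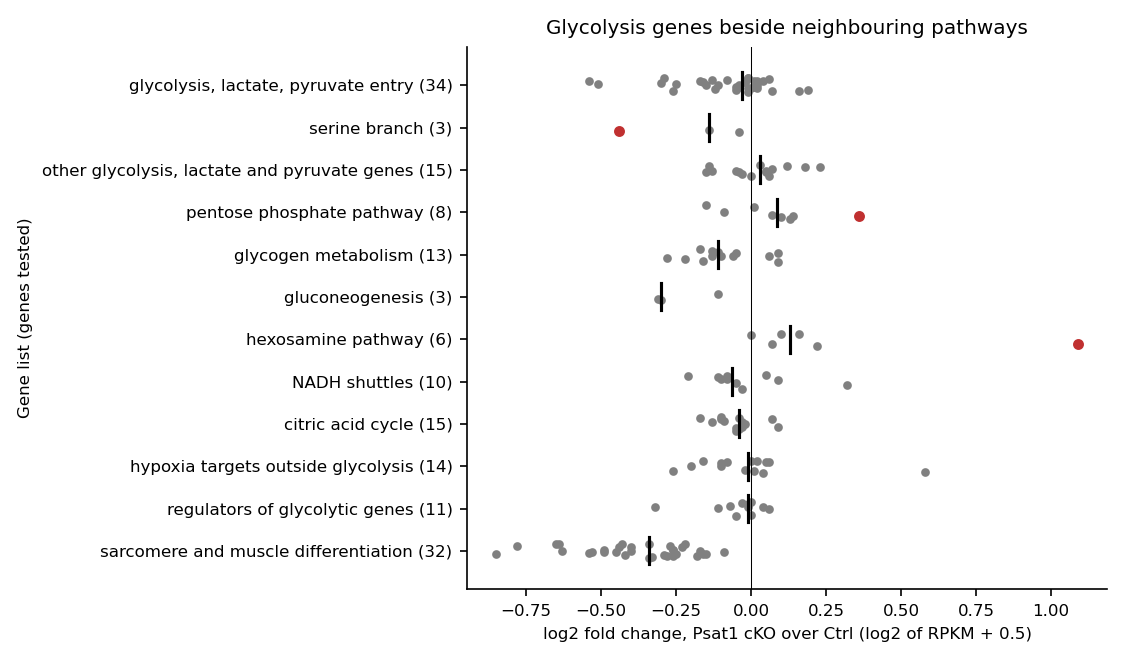
Log2 fold change of each tested gene, Psat1 cKO over Ctrl, for the 34 glycolysis genes and the neighbouring lists (grey, not called; red, adjusted p under 0.05), with the list median as a bar and the number tested in brackets. Red points are Psat1 (-0.44), Tkt (0.36) and Gfpt2 (1.09); the sarcomere genes all lie left of 0.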

How the data were processed

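Poly(A) libraries were made from 500 ng of RNA, per the labels' protocols. Trim Galore 0.6.6, TopHat2 2.1.1, Partek and mm10 appear in a list without roles, per the submitters' processing notes. How reads were counted, and on which annotation, is not given in the sources used here. A table deposited by the authors holds RPKM values for 25220 genes and another their comparison with group means on the log2 scale (of RPKM + 0.001, per the file headers), a ratio, p-values and q-values. The authors' deposited ratio is of those means.

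Depth came from the steps of the lowest RPKM values in genes with 1 exon and 1 transcript in GENCODE M21 (between 40.8% and 46.6% of values up to 20 reads within 1% of whole reads), too few whole values for a count test. At that depth 3 reads in a transcript of 1 kb give between 0.0696 and 0.154 RPKM, which covers counting error only.

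Values were tested as log2 of RPKM + 0.5, for genes averaging 0.5 RPKM or more, by limma 3.58.1 (R 4.3.3, moderated, with a trend of the variance), with Benjamini-Hochberg adjusted p under 0.05 over all 12251. Fold changes on that scale understate changes of low genes. Isoform shares used an exact permutation test (scipy 1.17.1). The test was checked on simulated data, with 200 of 12251 genes changed and the spreads shuffled between genes. There 72% of 1.5-fold and 92.2% of 2-fold changes were called, and 4.56% of the calls were false. Changes under 1.5-fold were not simulated. Replicates are not said to be separate animals, so p-values measure the spread between these samples. No pair of libraries shared more than 0.00602% of values. The genes and lists were chosen with earlier results of these data known. Named are all 36 genes, the serine synthesis genes, up to 3 genes of each list with the smallest p, and called genes. A gene taken by this rule is not reported here. Copies were sought with blastn 2.17.0 at 95% identity over 200 bases. Gapdh had 78, Pgk1 and Ldha 4 each, Eno1 3, and Pkm and Mpc1 2 each. Gpi1, Tpi1, Pfkfb2, Pgam1, Ldhb, Pdha1 and Pdhb had 1 each. Most of these copies have no entry in the table, so reads from them cannot be told apart with certainty. Pfkp overlaps Pitrm1, which averaged 29 RPKM, or 377% of the level of Pfkp. Plots used matplotlib 3.10.9.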

Additional observations from a re-analysis of the deposited data

How the results depend on the processing

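The members and all genes were refitted with pseudocounts of 0.1 and 1, a filter at 2 RPKM or none, no variance trend, TMM, quantile normalization, a replicate block, a term for Xist or Y-linked expression, each side of that split alone, and without each library. No glycolysis gene was called in any, except Pgam2 with the replicate block (adjusted p = 0.0168) and Pdk2 with the term for Xist or Y-linked expression (-0.40, adjusted p = 0.0446), which gave 1 lower gene each. Requiring 1.5-fold also left 0. The labels do not say whether the numbers pair the libraries. Deviations of same-numbered libraries correlated at 0.200, -0.0338 and 0.174, and 4 of 6 libraries correlated best with their own number, which does not settle it. The block gave 121 lower genes overall in place of 60. It ended the call of Tkt (adjusted p = 0.0782) and called the sarcomere genes Ckm (0.0373), Tnnt3 (0.0247) and Atp2a1 (0.0218). Without a filter, Psat1, Gfpt2, Tkt, Pax7 and Myf5 were not called (adjusted p between 0.0744 and 0.138). Without a filter 1 gene was higher and 3 lower, with Xist alone 46 and 26, and with Y-linked expression alone 42 and 14 (each with 1 library in an arm, taken to vary like the others). Without Psat1 cKO 2 there were 49 higher and 12 lower genes, without Psat1 cKO 3 106 and 35, without Ctrl 1 173 and 29, without Ctrl 2 54 and 12, without Ctrl 3 122 and 37, and without Psat1 cKO 1 the lower genes were 55. In these 6 fits no glycolysis gene was called. Between 10 and 15 of them lay lower without overlap, where this held for 14.3% to 18% of all genes, and between 0 and 3 higher, against 12.4% to 15%. The median log2 fold change of the 34 was -0.04 with the filter at 2 RPKM, -0.02 with TMM, -0.05 with the term and on each side of the split, and -0.05 to -0.02 without 1 library. The cause was not tested.

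Signs changed for 13 of the 34 genes, none with a log2 fold change over 0.07 in size. Slc2a1 was 0.01 with TMM, 0.001 with quantile normalization and 0.01 with Xist alone, and -0.07 to 0.04 without 1 library. Hk1 was 0.01, 0.0008 and 0.03 there and -0.02 to 0.02, and Hk2 -0.01 with Xist alone and -0.03 to 0.05. With Y-linked expression alone Gpi1 was -0.01, Pfkfb1 0.001, Pfkfb4 -0.07 and Pgam1 -0.01. Without 1 library Gpi1 ran from -0.003 to 0.08, Pfkfb1 from -0.04 to 0.03, Pfkfb4 from -0.0001 to 0.11, Pgam1 from -0.02 to 0.04 and Mpc1 from -0.05 to 0.01. Pfkfb2 was -0.01 with quantile normalization and with Xist alone (-0.02 to 0.08), and Pgk1 was -0.03 with Xist alone (-0.01 to 0.03). Pkm was 0.004 with TMM, 0.003 with the term and 0.03 with Y-linked expression alone (-0.03 to 0.00). Ldha was -0.02 with quantile normalization and -0.04 with Xist alone (-0.02 to 0.06). Ldhb was 0.01 with TMM, 0.003 with the term and 0.10 with Y-linked expression alone (-0.04 to 0.04). With Eno1b counted as Eno1, an alternative chosen after the data were seen, the Eno3 share differed by -1.77 points. The Pgam2 share differed by between -7.03 and -4.76 points without 1 library. That of Hk2 differed by -0.18 to 0.65 points there and that of Ldhb by -0.39 to 0.27 points. Txnip, a regulator of glucose uptake, ran from -0.23 to 0.005 on the log2 scale.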
